A study of Homo sapiens with 24 samples.

Results

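Overexpression of the full-length long noncoding RNA SLNCR was compared with an empty vector in 6 of the 24 RNA-seq libraries of this study, namely the 3 full-length and the 3 empty vector libraries that the labels place in batch 1. All 6 came from A375, an established human melanoma cell line, described by the labels as 3 biological replicates per condition. The cells were transfected with a lipid reagent, grown for 48 h in medium with 2 µg/mL puromycin, and lysed for total RNA, from which ribosomal RNA was depleted before paired 150-base sequencing on an Illumina HiSeq. The full-length cells (FL below) carried a pcDNA3.1 plasmid with a CAG promoter, a puromycin resistance gene and wild-type SLNCR. The control cells carried the vector backbone, so transfection, the plasmid backbone and puromycin selection were common to both groups. The other 6 batch 1 libraries carry SLNCR deletions and served here only to estimate the spread between replicates.

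SLNCR is the product of the LINC00673 gene and has been linked in earlier work with invasion of melanoma cells. The study asks about its triplex-forming regions, stretches of RNA thought to lie in the major groove of double-stranded DNA, where they pair with a strand of purines. Genes that such an RNA regulates may rise or fall, and a comparison of full-length RNA with an empty vector records direct and indirect changes together.

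SLNCR itself rose strongly in FL cells. TGFA, ARF4 and DEGS1 rose modestly and kept that call whichever single library was left out, as did HIF1A-AS2, whose match to the annotation is uncertain. In the look-up in batch 2, described further below, none of these genes was called, and DEGS1 had the opposite sign. Of all 14310 tested genes, 206 (1.44%) were called in both fits described below. Of 57 replication-dependent histone genes 8 were called lower in both fits, and none without empty vector replicate 1. Of 74 subunits of oxidative phosphorylation 5 were also called lower in both. Of 37 proteasome subunits 3 were called lower and 1 higher. Called higher were 3 of 39 genes of vesicle fusion, 2 of 28 of the unfolded protein response and 2 of 22 heat shock genes. All of these changes except that of SLNCR were small, and most of them rested on which libraries were included.

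The 6 libraries held 9251647 to 10789211 counts and detected 18520 to 18845 genes each. Replicates of a group differed by more than sampling noise, with a chi-square per gene of 1.76 to 6.65. The labels call the cells epithelial. Among epithelial markers, the adhesion genes EPCAM and CDH1 had 16 and 6 counts over the 6 libraries together, and the keratins KRT5, KRT14 and KRT19 had 19, 13 and 7. The keratins KRT8 and KRT18, which many melanoma lines also express, stood at 126 to 182 and 287 to 400.3 CPM, which are counts scaled to a common library total. MITF, the master regulator of the melanocyte lineage, was present at 74.3 to 101 CPM and SOX10, another lineage factor, at 11.3 to 14.4 CPM. TYR and S100B were at 0 counts, and the mesenchymal gene VIM and the receptor gene AXL were abundant. Of markers of blood cells, vessels and fibroblasts, PTPRC had 2 counts over all 6 libraries, VWF 9, DCN 4, PECAM1 36 and LUM 57. PDGFRB, a receptor of fibroblasts and mural cells, had 616 counts, at 8.11 to 11.8 CPM.

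The targeted gene checked the labels. SLNCR stood at 165, 239.9 and 220.0 CPM in the FL libraries, against 18.9, 20.8 and 20.6 CPM in the empty vector libraries. The lowest FL library lay far above the highest empty vector library. The log2 fold change, FL over empty vector, was 3.37 ± 0.14 (standard error; adjusted p = 3.65e-06). Adjusted p-values here and below come from edgeR's quasi-likelihood test with Benjamini-Hochberg adjustment over the 14310 genes tested, and a gene is said to be called, or to have risen or fallen, at an adjusted p under 0.05. The reads cannot tell RNA of the plasmid from RNA of the genomic locus. FL replicate 2 held the most SLNCR and FL replicate 1 the least.

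The genes that earlier work ties to SLNCR moved little. MMP9, a matrix protease, had 5 counts in all 6 libraries and was not tested. SOX9, a transcription factor, stood at 128, 130.3 and 129.9 CPM in FL cells, against 148, 141 and 136 CPM in empty vector cells. These groups did not overlap, but the difference of -0.13 ± 0.05 did not pass (adjusted p = 0.0777). EGR1, a zinc finger transcription factor induced by growth signals, was at 26.7 ± 2.3 CPM in FL cells and 30.4 ± 4.63 CPM in empty vector cells (SD, n = 3 each), with overlapping libraries. CDKN1A, the cell cycle inhibitor p21, had 275, 266 and 267 CPM in FL cells, against 282, 254 and 271 CPM in empty vector cells. Its log2 fold change was 0.00 ± 0.05 (adjusted p = 0.987), and with GC trends removed, as described next, it was 0.18 ± 0.04 (adjusted p = 0.0269) and called in 2 of the 6 fits that each left out 1 library.

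With counts taken as they are, 3247 of the 14310 tested genes (22.7%) were called, 1634 higher and 1613 lower in FL cells. Their changes were small, with a median size of 0.26 on the log2 scale. Only 22 had a log2 fold change of 1 or more in size. Genes high in FL cells were poor in G and C and genes low in FL cells were rich in them: the median GC content of the exons was 39.6% among called genes that were higher and 59.0% among those that were lower. Across the 13784 tested genes with a GC value, the fold change and GC content had a Spearman rho of -0.68, a description over genes that share the same 6 libraries.

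The trend could be read in each library. The slope of log2 CPM on GC content, relative to the mean of the 12 batch 1 libraries, was -0.10, -0.06 and -0.19 per 10 percentage points of GC in FL replicates 1, 2 and 3, against 0.11, 0.07 and 0.02 in empty vector replicates 1, 2 and 3. The groups did not overlap, and their difference of -0.18 reached the smallest p that 3 libraries against 3 allow (exact permutation test, two-sided, p = 0.1). SLNCR stood at 165, 239.9 and 220.0 CPM in FL replicates 1, 2 and 3, and its relation to the slope was not tested. In the decile of genes poorest in GC, 637 genes were called higher in FL cells and 2 lower, with a median log2 fold change of 0.22. In the decile richest in GC, 1 was called higher and 567 lower, with a median of -0.26. Whether the cells or the making of the libraries set this slope cannot be told apart in this design, since every FL library lies on the other side of every empty vector library.

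**Figure D1:**
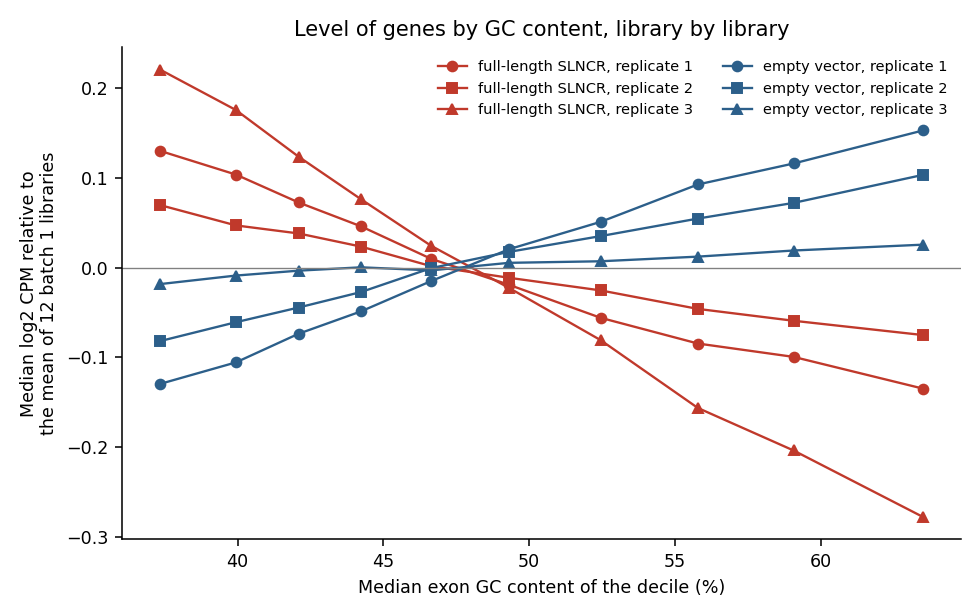
Median log2 CPM of genes in each decile of exon GC content, relative to the mean of the 12 batch 1 libraries (y axis), against the median GC content of the decile in percent (x axis); each line is 1 library, red for full-length SLNCR and blue for empty vector. The FL lines fall and the empty vector lines climb with GC content, and FL replicate 3 runs from 0.22 in the GC-poorest decile to -0.28 in the GC-richest.

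Each result below was therefore also taken from a fit in which the GC trend of each library was removed. That fit called 333 genes (2.33%), 185 higher and 148 lower, and the Spearman rho with GC content was -0.02. Genes called in both fits in the same direction and with a known GC content numbered 206 (1.44%), of which 123 were higher and 83 lower in FL cells. No gene was called in opposite directions by the fits. In 202 of the 206 the FL and empty vector libraries did not overlap in CPM; over all tested genes the libraries of the groups did not overlap in 5229 (36.5%). A further correction for exon length kept 194 of the 206. For 47 of them more than 10% of the exon length overlaps another gene on the same or on the opposite strand, so their counts are uncertain. The strand setting of the counting, which bears on overlaps between strands, is not given in the sources used here.

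**Figure D2:**
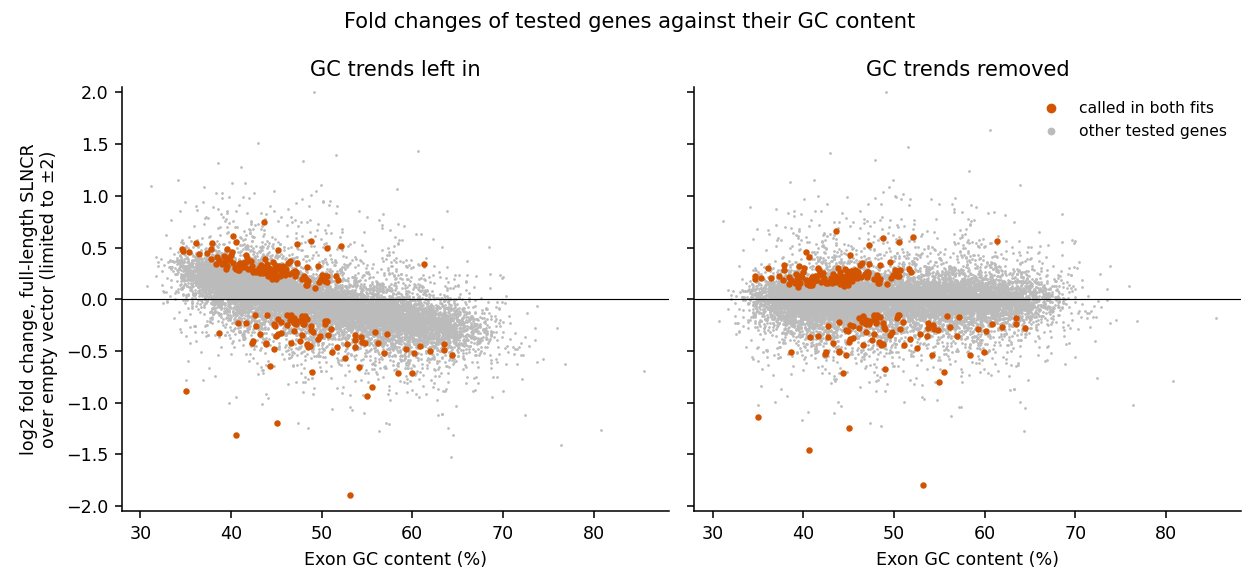
Log2 fold change of FL over empty vector (y axis, limited to 2 in either direction) against exon GC content in percent (x axis) for the 13784 tested genes with a GC value, with GC trends left in on the left and removed on the right. Each point is a gene; the 206 genes called in both fits are orange, and the downward slope of the cloud on the left (rho -0.68) is gone on the right (rho -0.02).

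The 206 calls depended on single libraries. Without empty vector replicate 1, the library with the steepest positive slope, 4 genes were called in both fits, all among the 206. Without FL replicate 3, the library with the steepest negative slope, 29 were called, of which 23 were among the 206. Leaving out FL replicate 1 gave 82, with 69 among the 206. Leaving out empty vector replicate 2 gave 32, with 31 among them, and leaving out empty vector replicate 3 gave 181, with 136 among them. Without FL replicate 2, the library closest to the empty vector group in its slope, the count grew to 628 and held 204 of the 206. When only the 6 libraries of both groups entered the fit, 11 genes were called in both fits, all among the 206. Of the 58 genes called in both fits that are named below, 54 lost this call without empty vector replicate 1, 49 without FL replicate 3, 41 without empty vector replicate 2, 39 without FL replicate 1, 16 without empty vector replicate 3, and 1, HSPE1, without FL replicate 2.

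TGFA, ARF4, DEGS1 and HIF1A-AS2 were called in both fits in every one of these 6 fits without a library, a choice made after their values were seen. TGFA (chr2:70447280-70554193, minus strand, GENCODE 29 on GRCh38) encodes transforming growth factor alpha, a ligand of the EGF receptor. It had 411, 371 and 419 CPM in FL cells, against 348, 337 and 346 CPM in empty vector cells. The FL libraries all lay above the empty vector libraries, and the log2 fold change was 0.22 ± 0.05 (adjusted p = 0.00162), or 0.23 ± 0.04 with GC trends removed (adjusted p = 0.00444). ARF4 (chr3:57571363-57598220, minus strand), a small GTPase of vesicle traffic at the Golgi, had 275, 259 and 302 CPM in FL cells, against 227, 214 and 240.0 CPM in empty vector cells. The groups again did not overlap, with a log2 fold change of 0.29 ± 0.05 (adjusted p = 0.000703), or 0.25 ± 0.04 with GC trends removed (adjusted p = 0.00444). Left-out libraries moved the value with GC trends removed between 0.20 and 0.29 for both genes.

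DEGS1 (chr1:224175756-224193441, plus strand) encodes the desaturase that turns dihydroceramide into ceramide. Its level was 165, 149 and 166 CPM in FL cells, against 121, 129.8 and 126 CPM in empty vector cells. No library of one group reached the other, and the log2 fold change was 0.35 ± 0.05 (adjusted p = 0.000388), or 0.34 ± 0.05 with GC trends removed (adjusted p = 7.97e-05). HIF1A-AS2 is an antisense RNA of HIF1A, the hypoxia-inducible transcription factor. It had 121, 113 and 139 CPM in FL cells, against 81.0, 86.2 and 91.0 CPM in empty vector cells. The groups did not overlap, with a log2 fold change of 0.53 ± 0.07 (adjusted p = 2.45e-05), or 0.53 ± 0.06 with GC trends removed (adjusted p = 8.58e-06). The name stands for different stretches in GENCODE and RefSeq, both on the minus strand of chromosome 14 and both meeting the HIF1A gene on the plus strand, so reads of HIF1A may be among its counts. Its GC content was read from the GENCODE gene of that name, so its value with GC trends removed, and with it the call in both fits, is uncertain. HIF1A itself had 438, 413 and 484 CPM in FL cells, against 355, 375 and 401 CPM in empty vector cells, a log2 fold change of 0.24 ± 0.05 (adjusted p = 0.00192) that came to 0.05 ± 0.04 with GC trends removed (adjusted p = 0.515).

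**Figure D3:**
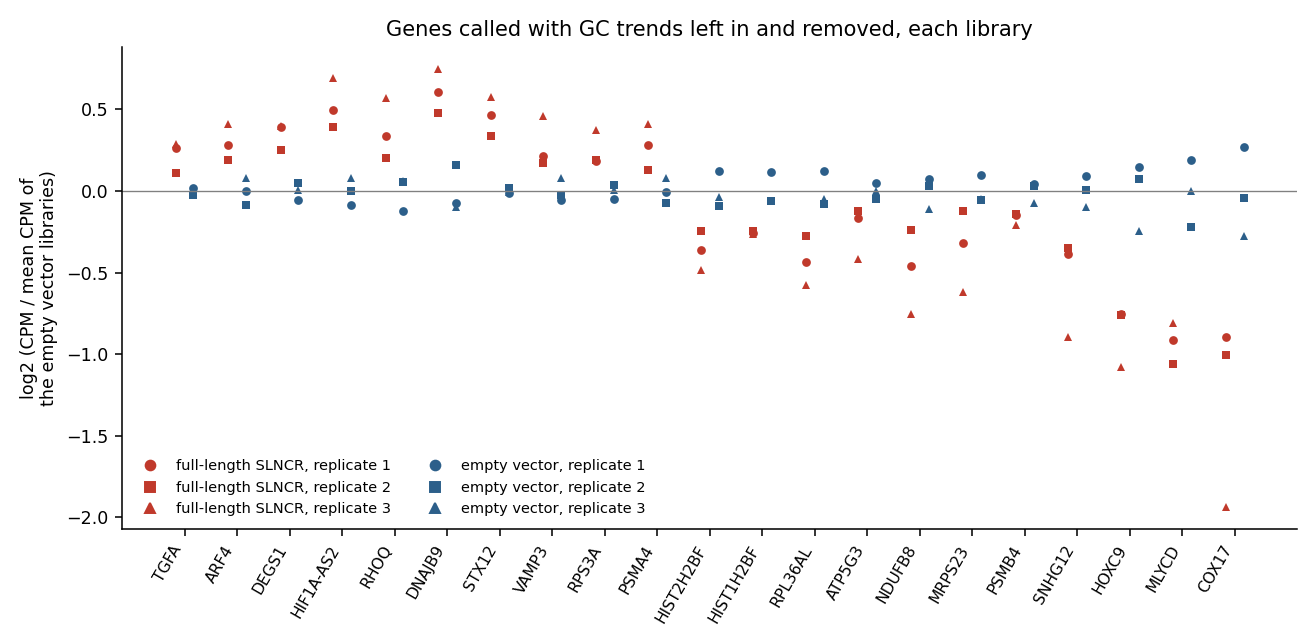
Level of 21 genes called in both fits, as log2 of CPM over the mean CPM of the empty vector libraries (y axis), by gene (x axis). Each marker is 1 library, red for full-length SLNCR and blue for empty vector, with the shape giving the replicate. FL replicate 3 is often the farthest from the empty vector libraries, as for COX17, where it had 1.62 CPM against 5.12 to 7.47 CPM in empty vector cells.

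COX17 (chr3:119654513-119677454, minus strand) fell in FL cells. It encodes the copper chaperone that supplies cytochrome c oxidase. Its level was 3.33, 3.08 and 1.62 CPM in FL cells, against 7.47, 6.01 and 5.12 CPM in empty vector cells. The groups did not overlap, and the log2 fold change was -1.19 ± 0.23 (adjusted p = 0.00108), or -1.24 ± 0.23 with GC trends removed (adjusted p = 0.00444). Its call in both fits held in 5 of the 6 fits without a library, and without empty vector replicate 1 the call with GC trends removed was lost (adjusted p = 0.122). The level is low, and 17.6% of its exon length lies under POPDC2 on the same strand. COX16, an assembly factor of the same enzyme, was lower as well (-1.31; adjusted p = 0.0172), at 0.431 to 0.841 CPM in FL cells and 1.39 to 1.72 CPM in empty vector cells, and shares 36.0% of its exon length with the readthrough gene SYNJ2BP-COX16; its call in both fits held in 1 of the 6 fits without a library. In the list of copper handling and cytochrome oxidase assembly, only these 2 of 29 tested members were called in both fits. Of all tested genes 1.44% were. The median log2 fold change of the list with GC trends removed was -0.07.

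The promoters of 4 of these genes are shown because the study concerns RNA that pairs with runs of purines in DNA, on either strand. TGFA and DEGS1 rose in every fit without a library, DNAJB9, described below, rose among the folding genes, and COX17 fell. Each is the 250 bases before the farthest upstream start in RefSeq (GRCh38.p14), written 5′ to 3′ along the gene, with the longest run of purines (A or G) or of pyrimidines (C or T) in capitals, and both runs where 2 are equally long.
TGFA, chr2:70553827-70554076, minus strand: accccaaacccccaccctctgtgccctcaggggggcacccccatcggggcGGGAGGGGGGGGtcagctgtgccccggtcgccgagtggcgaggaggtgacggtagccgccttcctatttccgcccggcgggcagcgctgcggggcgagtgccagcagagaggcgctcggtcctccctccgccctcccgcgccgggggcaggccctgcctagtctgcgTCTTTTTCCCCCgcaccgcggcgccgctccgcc
DEGS1, chr1:224182990-224183239, plus strand: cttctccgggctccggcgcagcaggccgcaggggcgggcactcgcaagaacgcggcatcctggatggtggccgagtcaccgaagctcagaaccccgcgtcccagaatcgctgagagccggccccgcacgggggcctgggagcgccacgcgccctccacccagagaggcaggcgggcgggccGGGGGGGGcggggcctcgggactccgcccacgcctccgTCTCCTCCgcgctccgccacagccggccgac
DNAJB9, chr7:108569624-108569873, plus strand: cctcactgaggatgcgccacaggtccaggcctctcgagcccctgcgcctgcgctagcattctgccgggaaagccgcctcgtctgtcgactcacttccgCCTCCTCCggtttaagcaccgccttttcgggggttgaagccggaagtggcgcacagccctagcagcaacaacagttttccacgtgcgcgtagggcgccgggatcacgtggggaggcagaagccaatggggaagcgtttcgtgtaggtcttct
COX17, chr3:119677407-119677656, minus strand: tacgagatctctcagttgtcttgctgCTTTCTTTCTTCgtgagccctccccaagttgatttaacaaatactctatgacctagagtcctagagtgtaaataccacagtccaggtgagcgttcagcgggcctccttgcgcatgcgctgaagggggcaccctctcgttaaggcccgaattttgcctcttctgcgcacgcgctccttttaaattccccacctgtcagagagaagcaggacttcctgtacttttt
The longest runs had 12 bases in TGFA and COX17 and 8 bases in DEGS1 and DNAJB9. TGFA and DEGS1 each held 1 run of purines and 1 of pyrimidines of that length, and DNAJB9 and COX17 held 1 of pyrimidines. Runs of at least 12 bases occur in 40.3% of the windows of tested genes, and runs of at least 8 in 91.6%. A run of at least 15 purines or at least 15 pyrimidines was present in 39 of 179 windows (21.8%, 95% Wilson interval 16.4 to 28.4%) of genes higher in both fits and in 22 of 93 windows (23.7%, 16.2 to 33.2%) of genes lower in both fits. Over all tested genes it was present in 2870 of 15943 windows (18.0%), which lies inside both intervals. The windows cover 99 of the 123 higher genes, 68 of the 83 lower genes and 11084 of all tested genes, and starts of 1 gene can overlap. A match describes letters and no binding.

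The other large rises called in both fits were not tested for shared functions. BMP2, a secreted bone morphogenetic protein, had 7.58, 6.54 and 9.71 CPM in FL cells, against 5.92, 5.15 and 5.44 CPM in empty vector cells. These did not overlap (0.51 ± 0.17; adjusted p = 0.028), but its call with GC trends removed (adjusted p = 0.0498) lay at the threshold and, in both fits, held in 1 of the 6 fits without a library. RHOQ, a small GTPase, had 82.2, 74.8 and 96.6 CPM in FL cells, against 59.9, 67.6 and 68.0 CPM in empty vector cells. It rose by 0.37 ± 0.07 (adjusted p = 0.00117) and lost its call only without empty vector replicate 1. TMED7, a cargo receptor of early secretion, rose by 0.54 (adjusted p = 0.00804; 0.33 with GC trends removed) and held in 3 of 6. CCZ1 and CCZ1B, near-identical genes of a late endosome exchange factor, rose by 0.48 (adjusted p = 0.00118) and 0.36 (adjusted p = 0.00534). Reads can be split between these copies, so their values are not separate observations. CAPN12, a calpain, rose by 0.34 (adjusted p = 0.000747), or 0.56 with GC trends removed. It is GC-rich, at 61.3%, and its rise ran against the GC trend. Of its exon length 18.3% lies opposite other genes, among them ACTN4, and their share of its counts was not tested. CAPN12 had 99.6 to 139.9 CPM in batch 1. In batch 2, counted in another way, it had 0.511 to 1.97 CPM and a log2 fold change of -0.66 (adjusted p = 0.294). Its call in both fits held in 2 of the 6 fits without a library. PPM1H, a protein phosphatase, ZNRF2, a ubiquitin ligase, and the antisense RNA TMEM5-AS1 rose by 0.56, 0.50 and 0.75 (adjusted p = 0.00953, 0.00741 and 0.00511), the last with 82.0% of its exon length opposite other genes.

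Further falls were of MLYCD, malonyl-CoA decarboxylase, HOXC9, a homeobox transcription factor, and RPL36AL, a ribosomal protein. MLYCD had 3.51, 3.18 and 3.77 CPM in FL cells, against 7.56, 5.69 and 6.61 CPM in empty vector cells. HOXC9 had 5.27, 5.23 and 4.21 CPM in FL cells, against 9.80, 9.34 and 7.47 CPM in empty vector cells. RPL36AL had 19.3, 21.6 and 17.6 CPM in FL cells, against 28.4, 24.8 and 25.3 CPM in empty vector cells. In all 3 genes every FL library lay below every empty vector library. The log2 fold changes were -0.93 for MLYCD (adjusted p = 0.00175), -0.85 for HOXC9 (adjusted p = 0.00121) and -0.42 for RPL36AL (adjusted p = 0.00324), and with GC trends removed they were -0.80, -0.71 and -0.53. The call in both fits held in 2 of the 6 fits without a library for MLYCD, in 3 for HOXC9 and in 5 for RPL36AL, which lost it without empty vector replicate 1. The largest change after that of SLNCR was in PABPN1, a nuclear poly(A)-binding protein, which is weakly expressed and was chosen after its values were seen. It had 0.185, 0.467 and 0.324 CPM in FL cells, against 1.16, 1.18 and 1.39 CPM in empty vector cells, which did not overlap. The log2 fold change was -1.89 ± 0.49 (adjusted p = 0.0067), or -1.79 ± 0.50 with GC trends removed (adjusted p = 0.0441). Its call in both fits held in 1 of the 6 fits without a library, and 16.8% of its exon length is shared with the readthrough gene BCL2L2-PABPN1. PIN4, a peptidyl-prolyl isomerase, RTRAF, an RNA-binding protein, CCDC151, a docking protein of ciliary dynein, MORN1 and PCED1B were also lower in both fits, with log2 fold changes of -0.48, -0.33, -0.71, -0.72 and -0.66 in that order.

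Replication-dependent histone genes, whose messages carry no poly(A) tail and are made in S phase, were the list with the lowest median. With GC trends left in, 35 of the 57 tested members fell and none rose (61.4%, against 22.7% of all tested genes). Their median log2 fold change was -0.37, where all tested genes had -0.02. The list is GC-rich, with a median of 57.4%, against 47.9% over all tested genes. With GC trends removed, 8 fell and none rose (14%, against 2.33% of all). The median was -0.25, and 7 of the 57 had a positive value, against 7133 of all 14310. All 8 were called in both fits: HIST1H2BN, HIST1H2AE, HIST1H2BF, HIST2H2BE, HIST1H2BJ, HIST1H3G, HIST1H2BC and HIST2H2BF. Not all of them are GC-rich: HIST1H2BF, HIST2H2BE and HIST1H2BJ have 42.7%, 48.0% and 49.1%. The falls of HIST1H2BN, HIST1H2BF, HIST1H3G and HIST2H2BF were larger with GC trends removed than with them left in, and those of the others smaller. HIST2H2BF had 92.0, 99.8 and 84.3 CPM in FL cells, against 129, 111 and 115 CPM in empty vector cells. HIST1H2BF had 81.2, 81.8 and 80.8 CPM in FL cells, against 105, 93.2 and 93.0 CPM in empty vector cells. Neither gene's groups overlapped, and with GC trends removed HIST2H2BF fell by 0.41 (adjusted p = 0.0149) and HIST1H2BF fell by 0.36 (adjusted p = 0.0149). Without FL replicate 2, 26 of the 57 fell with GC trends removed and 2 rose; without empty vector replicate 1 none was called, and the median was -0.21. Leaving out FL replicate 3 brought the median to -0.17, the value nearest to 0 among these fits, with 3 members lower. Histone genes have near-identical copies, so reads may be split among them. Fewer cells in S phase and less histone RNA per cell cannot be told apart in bulk RNA.

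Of 40 tested genes of G1/S and DNA replication, 2 rose and 6 fell with GC trends left in, among them CDT1, an origin licensing factor (-0.38; adjusted p = 0.00344), and MCM7, a subunit of the replicative helicase (-0.31; adjusted p = 0.00568). Called members made up 20% of this list, against 22.7% of all tested genes. With GC trends removed 1 rose and none fell (2.5%, against 2.33% of all), and CDT1 and MCM7 came to -0.11 (adjusted p = 0.396) and -0.14 (adjusted p = 0.0864). Of 41 genes of G2 and mitosis, which are GC-poor, 14 rose and 3 fell with GC trends left in (41.5%), led by SGO2, a protector of centromere cohesion (0.39; adjusted p = 0.000703), and NUF2, a kinetochore subunit (0.33; adjusted p = 0.00122). With GC trends removed none was called, and the median was 0.01, where it had been 0.11 with GC trends left in.

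Nuclear-encoded subunits of oxidative phosphorylation were lower on balance. With GC trends left in, 3 of 74 rose and 18 fell (28.4%, against 22.7% of all tested genes), with a median of -0.14. With GC trends removed 1 rose and 8 fell (12.2%, against 2.33% of all), with a median of -0.13, and 19 had a positive value. Called in both fits were NDUFB2, NDUFB8 and NDUFS8 of complex I, SDHA, the catalytic subunit of complex II, and ATP5G3, a c-ring subunit of ATP synthase, all lower. NDUFB8 had 16.6, 19.4 and 13.6 CPM in FL cells, against 24.1, 23.4 and 21.2 CPM in empty vector cells. ATP5G3 had 73.3, 75.7 and 61.6 CPM in FL cells, against 85.2, 79.4 and 82.5 CPM in empty vector cells. In neither did the groups overlap. The log2 fold change with GC trends removed was -0.38 for NDUFB8 (adjusted p = 0.0378) and -0.37 for ATP5G3 (adjusted p = 0.016). ATP5G3 kept its call in both fits in 4 of the 6 fits without a library and NDUFB8 in 2. With GC trends removed, 23 of the 74 fell without FL replicate 2 and none without empty vector replicate 1, with medians of -0.15 and -0.09. NDUFB8 shares 33.8% of its exon length with other genes on its strand.

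Proteasome subunits split by gene. PSMA4, an alpha subunit of the core particle, rose (0.28; adjusted p = 0.00124; 0.17 with GC trends removed), while PSMB4 and PSMB7, beta subunits of the core, and PSMC1, an ATPase of the regulatory particle, fell by 0.17, 0.19 and 0.25 with GC trends left in. Of 37 tested subunits, 3 rose and 8 fell with GC trends left in (29.7%, against 22.7% of all tested genes). With them removed 1 rose and 6 fell (18.9%, against 2.33% of all), 5 had a positive value, and the median was -0.09. Cytosolic ribosomal proteins were likewise mixed. RPS3A rose, at 658, 661 and 749.8 CPM in FL cells, against 560.3, 594 and 581 CPM in empty vector cells, which did not overlap (0.25; adjusted p = 0.000703; 0.18 with GC trends removed). RPS14 and RPS16, other proteins of the small subunit, fell by 0.16 (adjusted p = 0.0101) and by 0.24 (adjusted p = 0.0031). Of 78 tested ribosomal proteins, 1 rose and 19 fell with GC trends left in (25.6%). With them removed 3 rose and 3 fell (7.69%), and the median was -0.12. Copies of ribosomal protein genes make these counts uncertain. Among 77 mitochondrial ribosomal proteins, MRPS23 and MRPL52 fell in both fits. With GC trends left in 5 of the 77 rose and 14 fell (24.7%), and with them removed 5 fell and none rose (6.49%).

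SR proteins and hnRNPs, which bind pre-mRNA and regulate splicing, are GC-poor, and the balance of their calls moved with the fit. With GC trends left in, 5 of 36 rose and 5 fell (27.8%, against 22.7% of all tested genes), with a median of -0.01. With them removed none rose and 5 fell (13.9%, against 2.33% of all), with a median of -0.10. None was called in both fits. Of 23 small nucleolar RNA host genes, 3 fell with GC trends left in (13%) and 2 with them removed (8.7%). SNHG17 fell with GC trends left in (-0.26; adjusted p = 0.00692) and came to -0.15 with them removed (adjusted p = 0.189). SNHG12 was called in both fits, at 18.6, 19.1 and 13.0 CPM in FL cells, against 25.8, 24.4 and 22.6 CPM in empty vector cells. The groups did not overlap (-0.51 ± 0.11; adjusted p = 0.00257), and the call in both fits held in 3 of the 6 fits without a library.

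Vesicle fusion was the list with the highest median once GC trends were removed. SNARE proteins drive the merging of vesicles with their target membranes. Of 39 tested members, 8 rose and 2 fell with GC trends left in, or 25.6%, close to the 22.7% of all tested genes; with them removed 3 rose and none fell (7.69%, against 2.33% of all), 29 had a positive value, and the median was 0.09. The 3 genes called in both fits were STX12, an endosomal syntaxin, STX16, a syntaxin of the trans-Golgi network, and VAMP3, an endosomal vesicle SNARE. STX12 had 45.7, 41.8 and 49.3 CPM in FL cells, against 32.8, 33.6 and 33 CPM in empty vector cells. VAMP3 had 143, 138 and 168 CPM in FL cells, against 118, 121 and 129 CPM in empty vector cells. The groups of both genes did not overlap. STX12 rose by 0.46 ± 0.08 (adjusted p = 0.000703) and VAMP3 rose by 0.29 ± 0.06 (adjusted p = 0.00282), or by 0.30 and 0.20 with GC trends removed. Leaving out libraries kept the call in both fits in 1 of 6 for STX12, 2 of 6 for VAMP3 and 3 of 6 for STX16, which shares 28.4% of its exon length with the readthrough gene STX16-NPEPL1.

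Among 28 genes of the unfolded protein response, DNAJB9 and CANX rose in both fits. DNAJB9 is a co-chaperone of the endoplasmic reticulum. It had 26.2, 24.0 and 28.9 CPM in FL cells, against 16.4, 19.2 and 16.1 CPM in empty vector cells. The groups did not overlap, and it rose by 0.61 ± 0.11 (adjusted p = 0.000703), or by 0.46 ± 0.10 with GC trends removed (adjusted p = 0.0149), a call in both fits that held in 3 of the 6 fits without a library. CANX, the lectin chaperone calnexin, had 1152, 1114 and 1216 CPM in FL cells, against 996, 1001 and 1046 CPM in empty vector cells, and rose by 0.19 ± 0.04 (adjusted p = 0.0018). The list as a whole had 8 genes higher and 2 lower with GC trends left in (35.7%, against 22.7% of all tested genes). With them removed 2 were higher and none lower (7.14%, against 2.33% of all). The medians were 0.00 and 0.03. Of 22 heat shock genes, HSPA8, the constitutive cytosolic HSP70, and HSPE1, a mitochondrial chaperonin subunit, rose in both fits. With GC trends left in, 3 of the 22 rose and 4 fell (31.8%), and with them removed 3 rose and none fell (13.6%). The medians were 0.01 and -0.003. HSPA8 had 4829, 4779 and 5248 CPM in FL cells, against 4475, 4677 and 4608 CPM in empty vector cells. It rose by 0.11 ± 0.04 (adjusted p = 0.0309); HSPE1 lost its call in both fits in each of the 6 fits without a library.

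**Figure D4:**
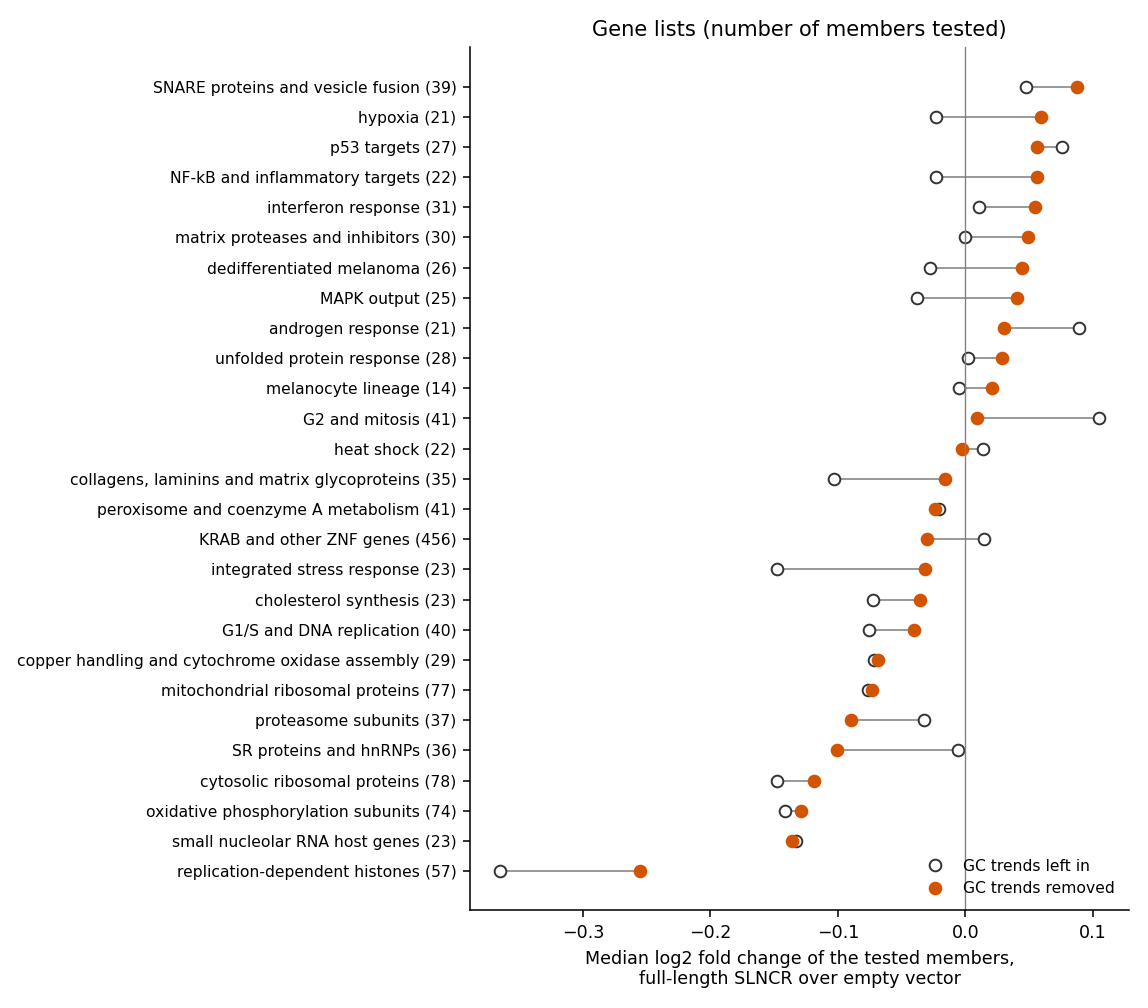
Median log2 fold change of FL over empty vector (x axis) for the gene lists with at least 10 tested members (y axis, with the number tested); open circles have GC trends left in and orange circles have them removed. The histones are lowest in both, at -0.37 and -0.25, while G2 and mitosis moves to 0.01 and SNARE proteins reach 0.09.

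In several lists, among them the histone, oxidative phosphorylation and proteasome lists, the FL libraries kept the order of their GC slopes even with GC trends removed. Relative to the mean of the empty vector libraries, the median histone gene stood at -0.23, -0.09 and -0.41 on the log2 scale in FL replicates 1, 2 and 3, against 0.09, -0.03 and -0.05 in empty vector replicates 1, 2 and 3. Oxidative phosphorylation subunits stood at -0.11, -0.07 and -0.18 in FL libraries, against 0.06, -0.02 and -0.03 in empty vector libraries. Proteasome subunits stood at -0.07, -0.04 and -0.20 in FL libraries, against 0.02, -0.02 and -0.01 in empty vector libraries. The FL order held for cytosolic ribosomal proteins (-0.10, -0.04 and -0.23) and for SR proteins and hnRNPs (-0.12, -0.04 and -0.16). In each of these lists the FL libraries lay below the empty vector libraries. They lay farthest in FL replicate 3, which has the steepest GC slope, and least in FL replicate 2, which has the flattest. The part of this remaining library difference in the falls of these lists was not tested. SNARE proteins were different in this respect, at 0.06, 0.07 and 0.06 in FL libraries, against 0.03, -0.02 and 0.00 in empty vector libraries. Unfolded protein response genes were at 0.04, 0.04 and 0.03 in FL libraries, against 0.01, -0.01 and 0.00 in empty vector libraries.

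**Figure D5:**
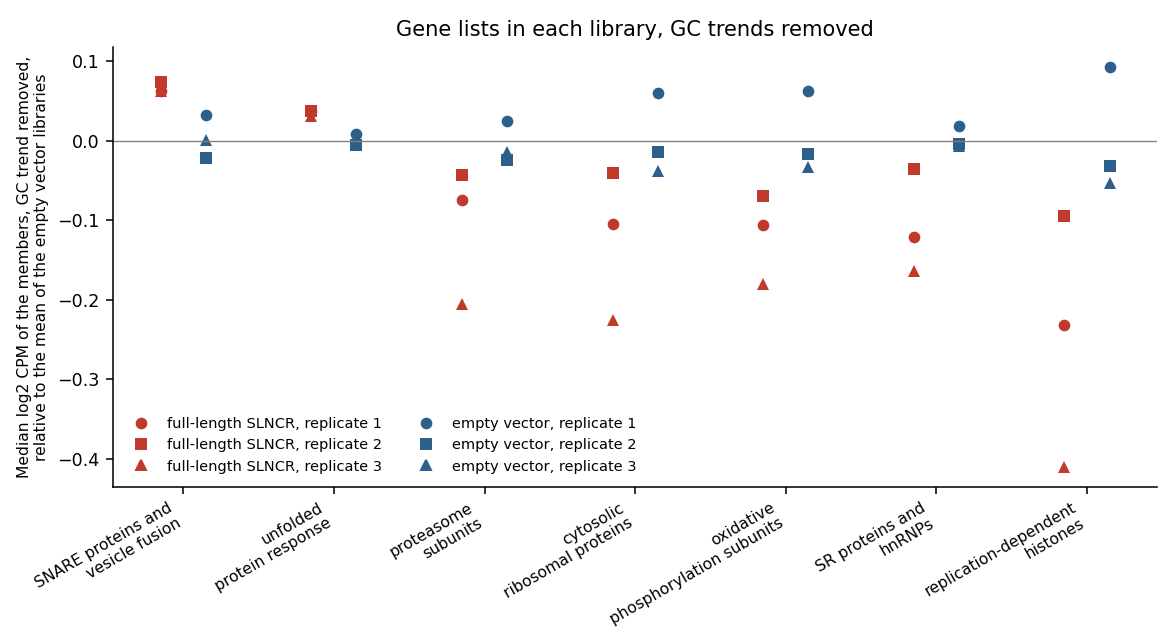
Median log2 CPM of the members of 7 gene lists with GC trends removed, relative to the mean of the empty vector libraries (y axis), by list (x axis). Each marker is 1 library, red for full-length SLNCR and blue for empty vector; the FL medians of the histones spread from -0.41 to -0.09, while those of SNARE proteins all lie near 0.06 to 0.07.

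Many genes of pathways often studied in melanoma were called only with GC trends left in. Among MAPK output genes, EPHA2, a receptor tyrosine kinase, was lower in FL cells (-0.23; adjusted p = 0.000985) and CXCL8, a chemokine, was higher (0.39; adjusted p = 0.00163). With GC trends removed they came to -0.02 (adjusted p = 0.782) and 0.08 (adjusted p = 0.623). EPHA2 has 60.4% GC and CXCL8 32.3%. PTGS2, the inducible cyclooxygenase, was higher (0.50; adjusted p = 0.00495) and came to 0.26 with GC trends removed (adjusted p = 0.283). JUN, an AP-1 subunit, was lower (-0.43; adjusted p = 0.00401) and came to -0.27 (adjusted p = 0.0724). In the integrated stress response list, 1 of 23 genes rose and 6 fell with GC trends left in (30.4%, against 22.7% of all). None was called with them removed. The targets STC2 and TRIB3 of this response came to -0.19 (adjusted p = 0.127) and -0.04 (adjusted p = 0.748). In the list of p53 targets, CCNG1, cyclin G1, rose in both fits (0.44; adjusted p = 0.00995; 0.23 with GC trends removed). MDM2, the p53 ubiquitin ligase, was higher only with GC trends left in (0.18; adjusted p = 0.00612; 0.06 with them removed). In the androgen response list TPD52 rose in both fits (0.32; adjusted p = 0.000747; 0.18 with GC trends removed).

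Of all tested genes 22.7% were called with GC trends left in and 2.33% with them removed. Cholesterol synthesis had 4 genes higher and 5 lower of 23 with GC trends left in and none with them removed. Matrix glycoproteins had 1 higher and 6 lower of 35, and then none. The interferon response had 2 higher and 2 lower of 31, and then none. Of 14 tested melanocyte lineage genes, 1 was lower with GC trends left in and none with them removed. Of 456 zinc finger genes of the ZNF family, 27 rose and 20 fell with GC trends left in and 2 rose and 2 fell with them removed; ZNF275 was the one called in both (0.32; adjusted p = 0.00334). KRT8, a keratin of simple epithelia, fell in both fits. It had 145, 153 and 126 CPM in FL cells, against 182, 181 and 165 CPM in empty vector cells. The log2 fold change was -0.31 (adjusted p = 0.00112), or -0.17 with GC trends removed. Its call in both fits held in 2 of the 6 fits without a library.

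Removal of GC trends also added calls. Of 110 genes with a call only after removal, CDK5, a cyclin-dependent kinase, had 45.0, 44.5 and 53.4 CPM in FL cells, against 42.4, 40.4 and 45.3 CPM in empty vector cells. These libraries overlapped, and the log2 fold change was 0.15 with GC trends left in (adjusted p = 0.151) and 0.33 with them removed (adjusted p = 0.0283). CMC1, an assembly factor of cytochrome c oxidase, had 17.8, 16.2 and 16.7 CPM in FL cells, against 22.2, 17.8 and 18.2 CPM in empty vector cells. Its log2 fold change was -0.20 with GC trends left in (adjusted p = 0.179) and -0.47 with them removed (adjusted p = 0.0218). Genes called only with GC trends left in numbered 3024, and the largest rises and falls among those named by rule were in weakly expressed genes. SLC38A4, an amino acid transporter, had 2.31, 1.49 and 3.77 CPM in FL cells, against 1.07, 1.40 and 1.17 CPM in empty vector cells (1.03; adjusted p = 0.0249; adjusted p = 0.174 with GC trends removed). TGFBR3L had 1.29, 2.24 and 1.62 CPM in FL cells, against 3.69, 3.11 and 4.48 CPM in empty vector cells (-1.12; adjusted p = 0.00382; adjusted p = 0.134 with GC trends removed).

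The same plasmid was compared with its own empty vector in batch 2, whose 6 libraries were counted in another way and fitted separately. There 217 of 18763 genes (1.16%) were called. Of the 206 genes called in both batch 1 fits, 204 were tested in batch 2, and 157 (77.0%) had the same sign, where 65.5% of all tested genes with a GC value did. BMP2 was the single one called in the same direction, with a batch 2 log2 fold change of 1.93 ± 0.43 (adjusted p = 0.0496), and none was called in the opposite direction. Opposite calls did appear with other settings for batch 2: 3 with DESeq2, which called 2061 genes in all, 1 with a replicate block, and 5 without FL replicate 3 of batch 2, when 5966 genes (30.7%) were called. The share with the same sign rested on 1 library. Without FL replicate 1 of batch 2, 97 of 204 (47.5%) had the same sign, and the share over all genes was not computed. The library left out had a GC slope of -0.46, against 0.02 and 0.05 in FL replicates 2 and 3 of batch 2. The empty vector libraries of batch 2 had slopes of 0.003 to 0.10. With the GC trends of batch 2 removed, 136 of 204 (66.7%) had the same sign against 55.0% of all, and 3 were called in the same direction, where 762 of 18763 genes (4.06%) were called, among them DNAJB9 (0.76; adjusted p = 0.0483) and BMP2 (2.06; adjusted p = 0.0494). TGFA and ARF4 had batch 2 log2 fold changes of 0.28 (adjusted p = 0.256) and 0.15 (adjusted p = 0.521), COX17 of -0.72 (adjusted p = 0.175), and DEGS1 of -0.37 (adjusted p = 0.213), opposite to its rise in batch 1. HIF1A-AS2 had 0.04 (adjusted p = 0.95) in batch 2, an uncertain match, since it was looked up by the GENCODE identifier.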

How the data were processed

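Batch 1 values are raw counts per gene symbol as deposited by the authors, 28008 genes in 12 libraries, of which 6 are compared here. The submitters' processing notes list STAR 2.7.3a, Subread 1.6.2 with featureCounts, cutadapt 2.5, FastQC 0.11.5 and DESeq2 1.24.0. They name the builds GRCm38 and GRCh38 without a role. The sources used here give neither strand setting nor annotation release. The batch 2 table, used for a look-up alone, holds estimated counts from salmon as deposited by the authors, rounded here to whole numbers.

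The test was the robust quasi-likelihood test of edgeR 4.0.16 (R 4.3.3), after TMM normalisation and a filterByExpr step (at least 10 counts, 15 in total), with Benjamini-Hochberg adjustment and a threshold of 0.05. All 12 batch 1 libraries entered the fit, so that 4 groups shared the spread. TMM-scaled CPM are printed; the prior count for log2 CPM was 2. Standard errors were taken as the fold change on the log2 scale over the root of F. Exon GC content, length and coordinates came from GENCODE 29 (GRCh38) for 96.3% of the tested genes. In a repeat fit, a lowess trend of each library's log2 CPM on GC content (span 0.3) entered as an offset; the 526 genes without a GC value had none. Promoter windows came from RefSeq (GRCh38.p14). The script was tested on simulated counts before use.

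The members, the 30 gene lists and the naming rule were chosen with earlier results of these data known. The rule took SLNCR and linked genes, the 15 largest rises and falls called in both fits with groups that do not overlap and a log2 CPM averaging 1 or more, list members called in both fits or with the lowest adjusted p, the 5 largest rises and falls called in a single fit, and cell type markers; not all are reported. TGFA, ARF4, HIF1A and PABPN1 were named after their values were seen, and the demand for a GC value in genes called in both fits was added then too. Alternatives were DESeq2 1.42.0, RLE size factors, no filter, fits of the 6 libraries alone, fits without 1 library, a replicate block, and other GC and length corrections. P-values measure the spread between these libraries; Wilson intervals cover counting error alone.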

Additional observations from a re-analysis of the deposited data

Results flagged for a closer look

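For 9 of the 78 named genes tested in both batches (11.5%) the FL and empty vector libraries did not overlap in either batch and differed in opposite directions. Over all genes tested in both batches this held for 358 of 13282 (2.7%), but the named genes were mostly chosen for calls in batch 1, and the shares were not compared by a test. Among genes without overlap in both batches the counts were 9 of 18 named genes and 358 of 1203 of all. The differences between batches were not tested, and the batches were counted in different ways.

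Overlap was judged on CPM with GC trends left in, and the fold changes given first also have them left in. With the GC trends of batch 1 removed, DEGS1, HSPA8 and HSPE1 had 0.34, 0.15 and 0.33 in batch 1 and were called. EPHA2, SOX9, SNHG17, STC2, JUN and TGFBR3L then had -0.02, -0.06, -0.15, -0.19, -0.27 and -0.76 in batch 1, and none of them was called. DEGS1 had a log2 fold change of 0.35 in batch 1 and -0.37 in batch 2 (batch 2 adjusted p = 0.213). The chaperones HSPA8 and HSPE1 had 0.11 and 0.31 in batch 1, against -1.49 and -1.01 in batch 2 (adjusted p = 0.0919 and 0.085). JUN had -0.43 in batch 1 and 2.49 in batch 2 (adjusted p = 0.0626), and STC2 had -0.28 in batch 1 and 1.95 in batch 2 (adjusted p = 0.0414). SOX9 had -0.13 in batch 1 and 0.62 in batch 2 (adjusted p = 0.0425), EPHA2 had -0.23 in batch 1 and 0.54 in batch 2 (adjusted p = 0.131), TGFBR3L had -1.12 in batch 1 and 0.99 in batch 2 (adjusted p = 0.0828), and SNHG17 had -0.26 in batch 1 and 0.55 in batch 2 (adjusted p = 0.0683). STC2 and SOX9 alone passed in batch 2 with GC trends left in. With the GC trends of batch 2 removed, STC2 and SOX9 passed again (adjusted p = 0.0406 and 0.027). SNHG17 (0.70, adjusted p = 0.0493) and TGFBR3L (1.34, adjusted p = 0.0444) then passed too.

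In batch 2 some of these genes differed widely among the FL libraries. HSPA8 had 349.9, 397 and 1674 CPM in FL replicates 1, 2 and 3, against 2043 to 2621 CPM in empty vector libraries. JUN had 185, 339.9 and 44.6 CPM in FL libraries, against 32.3 to 36.1 CPM in empty vector libraries, and STC2 had 105, 117 and 35.9 CPM in FL libraries, against 21.3 to 22.7 CPM in empty vector libraries. FL replicate 3 lay closest to the empty vector libraries in all 3 genes.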

How the results depend on the processing

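The rise of SLNCR kept its size under every alternative run (3.27 to 3.53 on the log2 scale without 1 library each). Counts of called genes did not. With GC trends left in, 3247 calls were made, 2108 when the 6 libraries alone were fitted, and 1182 to 4064 without 1 library each. The count was 333 with GC trends removed, 307 with trends from GC bins, and 364 after length was corrected for too. The fit without GC trends gave 737 without a filter, 16 from the 6 libraries alone, and 6 to 981 without 1 library each. Genes called in both fits numbered 206, against 541 without a filter, of which 202 were among the 206, 11 from the 6 libraries alone, 183 with DESeq2, and 4 to 628 without 1 library each. The causes were not tested.

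Whether replicate numbers pair the samples is not known. Deviations of same-numbered libraries correlated at 0.02, 0.03 and 0.16, and those of libraries with unlike numbers at -0.15 to 0.12. With the number as a replicate block, 3722 genes were called, 524 with GC trends removed and 337 in both fits.

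Of the batch 1 genes called in both fits, 157 had the same sign in batch 2, and 97 to 180 without 1 batch 2 library each; those called the same way numbered 1, or 0 to 51 without 1 library each, 3 with the GC trends of batch 2 removed and 14 with DESeq2. Calls the opposite way numbered 0, or 0 to 5 without 1 library each, 1 with a replicate block and 3 with DESeq2. Without 1 library each, CDKN1A ranged from -0.028 to 0.047 with GC trends left in and EGR1 from -0.16 to 0.042 with them removed. At 9251647 to 10789211 counts per library, folds of genes near 1 CPM rest on few reads.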
